A study of Mus musculus with 7 samples.

Results

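The genes described here encode 10 secreted proteins of the hepatic acute phase: the serum amyloid A genes Saa1, Saa2, Saa3 and Saa4, the orosomucoid genes Orm1, Orm2 and Orm3, haptoglobin (Hp), hemopexin (Hpx) and lipocalin 2 (Lcn2). They were chosen by name, and all 10 were among the 23347 genes counted in mouse liver. Liver RNA was sequenced from male mice on a C57BL/6 background whose B4galt1 alleles were floxed, that is, flanked by sites for Cre recombinase. In 3 of the mice, labelled B4galt1-HKO and written B4galt1 hep-/- here, an Alb-Cre transgene drives the recombinase from the albumin promoter, which is active mainly in hepatocytes, so other liver cells are meant to keep the gene. The other 4 were B4galt1 flox/flox littermates without Cre, which the labels call WT. All 7 mice started as young adults on CDAHFD, a high-fat diet of defined L-amino acids without choline that brings on steatohepatitis, and stayed on it for 15 weeks. No chow-fed liver was analysed here, so each comparison is between genotypes within the diseased state, and none shows what the diet itself did.

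The acute phase is the change in plasma protein synthesis that follows injury, infection or other inflammation. Hepatocytes are its main source: interleukin 6 and its relatives act through gp130 and STAT3, interleukin 1 and TNF act through NF-kB, and both routes meet C/EBP factors at the promoters of acute-phase genes. Type 1 genes such as the Saa and Orm families answer to both routes together, whereas type 2 genes answer mainly to the interleukin 6 route. The products bind lipid, haem, haemoglobin or bacterial iron carriers in plasma, and orosomucoid, haptoglobin and hemopexin are heavily N-glycosylated, so their glycans are among those that B4GALT1, a Golgi β-1,4-galactosyltransferase, extends.

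Promoters of 8 of the 10 genes were matched by symbol in a RefSeq table on GRCm38.p6, from 250 bases before to 50 bases after each start. The letters TTGCNNAA, a C/EBP-type motif, were searched on both strands and occurred in all 8 windows, and in 10.8% of 32544 promoter windows of this length. The STAT-type letters TTCNNNGAA were in 0 of the 8 (8.33% of all windows), and a loose NF-kB-type motif in 0 of the 8 (5.56%). Narrower forms of the NF-kB-type motif, whose matches are a subset of the loose ones, were in 0.415% and 0.157% of all windows and also in 0 of the 8. These are matches of letters and not measured sites, and a window without a match says only that these letters are not in it. The 250 bases before the start are shown for 2 pairs of close copies, Saa1 with Saa2, whose levels were lower in the livers labelled B4galt1 hep-/-, and Orm2 with Orm3, whose levels were higher, though only Saa1 and Orm3 passed the test. They run 5′ to 3′ along the strand of the gene, with the TTGCNNAA match in capitals. Saa1 lies at chr7:46742981-46743230 on the minus strand and Saa2 at chr7:46751583-46751832 on the plus strand, so the pair is transcribed in opposite directions, and the windows for Orm2 and Orm3 are chr4:63362199-63362448 and chr4:63355908-63356157, both on the plus strand.
Saa1: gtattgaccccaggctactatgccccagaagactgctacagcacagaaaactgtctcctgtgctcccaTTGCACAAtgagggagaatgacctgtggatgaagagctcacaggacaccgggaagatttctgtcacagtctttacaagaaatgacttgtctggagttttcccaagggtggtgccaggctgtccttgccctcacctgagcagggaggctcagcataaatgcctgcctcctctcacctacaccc
Saa2: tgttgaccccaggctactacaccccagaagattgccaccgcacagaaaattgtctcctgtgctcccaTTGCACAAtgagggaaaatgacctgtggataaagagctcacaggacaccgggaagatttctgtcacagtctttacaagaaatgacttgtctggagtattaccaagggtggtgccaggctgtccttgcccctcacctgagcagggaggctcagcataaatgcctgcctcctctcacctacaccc
Orm2: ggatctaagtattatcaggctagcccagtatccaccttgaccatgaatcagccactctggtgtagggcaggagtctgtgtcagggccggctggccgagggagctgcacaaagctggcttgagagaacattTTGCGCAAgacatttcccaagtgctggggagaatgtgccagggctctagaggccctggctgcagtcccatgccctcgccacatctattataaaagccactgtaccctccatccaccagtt
Orm3: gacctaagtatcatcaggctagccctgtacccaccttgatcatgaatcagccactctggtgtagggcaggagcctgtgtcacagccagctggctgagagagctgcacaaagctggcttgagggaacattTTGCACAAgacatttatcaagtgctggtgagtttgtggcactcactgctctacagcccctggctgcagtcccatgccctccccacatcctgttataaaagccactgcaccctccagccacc

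Over the whole windows, 287 of 299 aligned bases (96.0%) were identical between Saa1 and Saa2, and their matches stood at almost the same place, at -182 to -175 and -183 to -176 from the start. Orm2 and Orm3 shared 264 of 295 aligned bases (89.5%), with matches at -120 to -113 and -121 to -114, and the Orm2 match reads as one on both strands. The matches in the other promoters were scattered, at -99 to -92 in Saa3, -245 to -238 and -52 to -45 in Saa4, -200 to -193 in Hpx and -216 to -209 in Lcn2. Orm1 and Hp were not in the table.

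**Figure D1:**
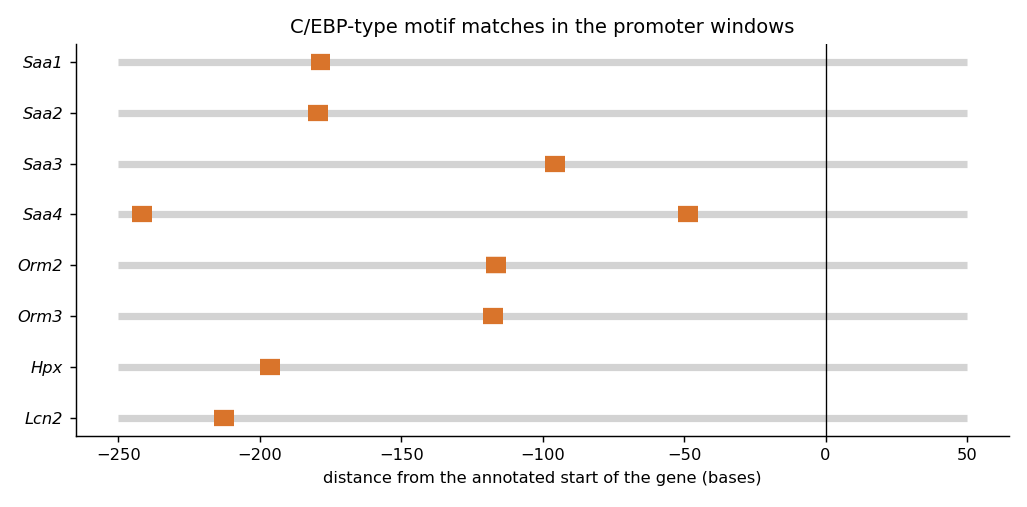
Positions of TTGCNNAA matches (orange blocks) in the promoter windows of 8 acute-phase genes, as the distance in bases from the annotated start (vertical line). Saa1 and Saa2 carry their match at nearly one position, as do Orm2 and Orm3, and Saa4 has 2 matches, at -245 to -238 and at -52 to -45.

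The libraries held between 30608271 and 39668509 counts. The 3 labelled B4galt1 hep-/- were the smallest, and transcripts encoded by the mitochondrial genome took 14.4% to 22.6% of their counts against 3.88% to 8.0% in the rest. Values below are CPM, each count as a share of the library total, after TMM scaling, which sets libraries to a common level on genes without extreme differences. The targeted gene, B4galt1 (NCBI gene 14595), averaged 50.6 ± 2.01 CPM (SD, n = 4) in controls. Replicates 1, 2 and 3 labelled B4galt1 hep-/- held 28.4, 23.9 and 53.7 CPM of it, so replicate 3 goes against its label. Its log2 fold change was -0.52 (SE 0.26, adjusted p = 0.181 from edgeR), and -0.96 (adjusted p = 0.0139) without that library. Directions are therefore those of the libraries carrying the label, and calls below that were gained or lost without replicate 3 are pointed out.

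Of the 10 genes, Saa1 was about halved in the livers labelled B4galt1 hep-/-, Orm3 was higher, and the other 8 did not pass the threshold. The Orm3 call was lost without labelled replicate 3, and neither call stood without B4galt1 flox/flox replicate 2. Log2 fold changes that did not pass were -0.75 for Saa2, 0.44 for Orm2 and 0.47 for Hp. The threshold was an adjusted p under 0.05 (edgeR quasi-likelihood F-test, Benjamini-Hochberg over 15179 genes) together with an absolute log2 fold change over 0.58. All 10 genes passed the filter on low counts. By this rule 1 member was lower, where 7.83% of all tested genes were lower, and 1 was higher, where 8.0% were (15.8% in either direction). The median log2 fold change over the members was 0.15, beside 0.02 over all tested genes, and from 0.021 (without labelled replicate 3, and 0.025 without B4galt1 flox/flox replicate 1) to 0.30 (without labelled replicate 2) with single libraries left out. Counted by CPM alone, 2 members had every labelled liver below every B4galt1 flox/flox liver (15.0% of tested genes did) and 3 had every labelled liver above (13.6%, or 28.6% either way). The shares called are close to those of all genes, and nothing is read from them about the list. Without replicate 3 labelled B4galt1 hep-/-, 1 member was called lower and 0 were called higher. In bulk tissue, fewer cells of a type and less RNA per cell cannot be told apart.

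**Figure D2:**
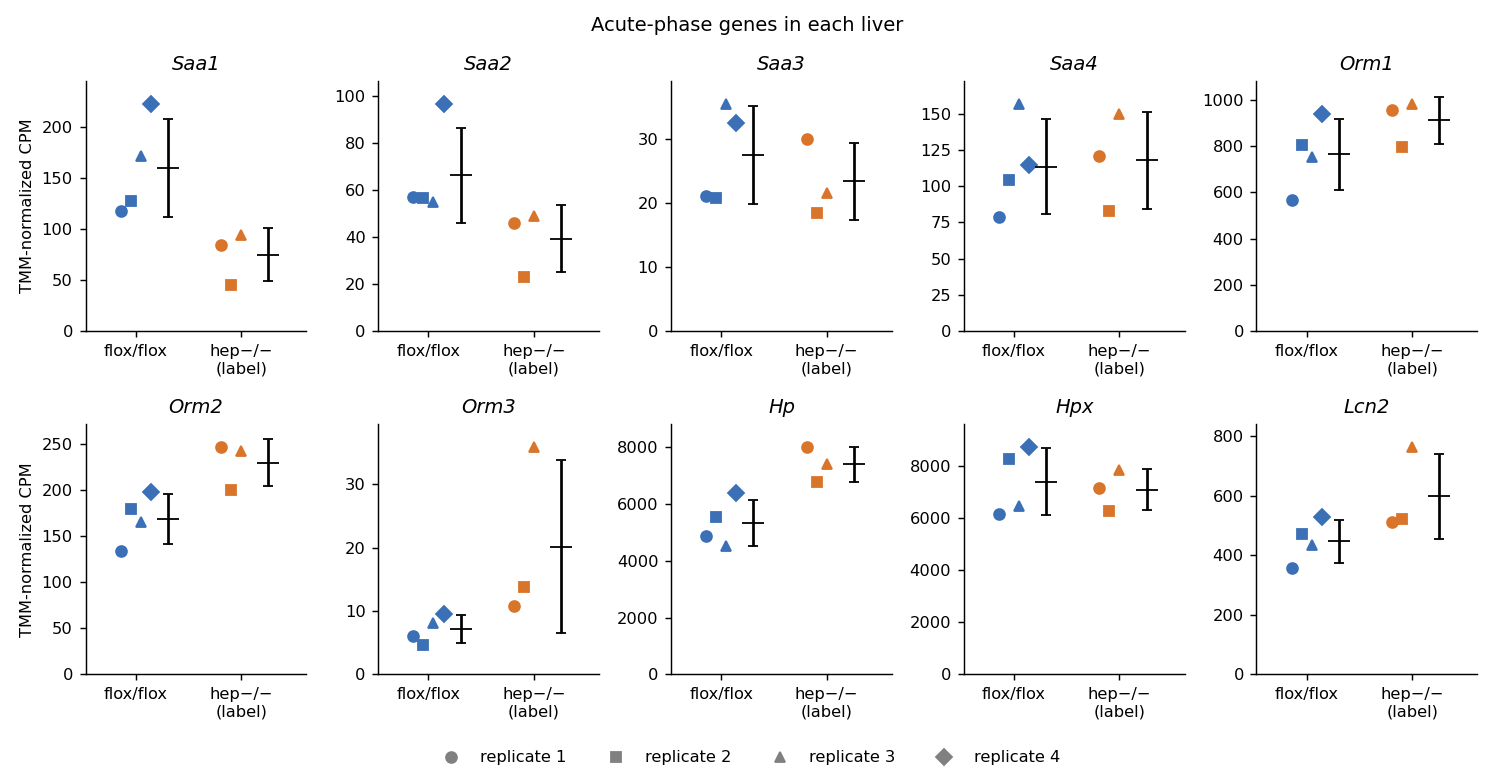
TMM-normalized CPM of each acute-phase gene in each liver (blue, 4 B4galt1 flox/flox; orange, 3 livers labelled B4galt1 hep-/-), with markers for the replicate numbers and black bars for the mean ± SD. The labelled livers lie below all others for Saa1 and Saa2 and above all others for Orm2, Orm3 and Hp, while the groups overlap for the other 5 genes.

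Serum amyloid A proteins are small apolipoproteins of high-density lipoprotein. Saa1 and Saa2 are the acute forms made by hepatocytes. Saa1 (NCBI gene 20208, chromosome 7) was measured at 118, 127, 172 and 223 CPM in B4galt1 flox/flox replicates 1 to 4, and at 84.7, 45.4 and 94.6 CPM in replicates 1 to 3 labelled B4galt1 hep-/-. Each labelled liver was below each B4galt1 flox/flox liver, with replicate 2 the lowest. The means were 160.0 ± 48.0 (SD, n = 4) and 74.9 ± 26.0 CPM (SD, n = 3), and the labelled group stood at 0.468 of the other. The log2 fold change of -1.10 (SE 0.30, 95% interval -1.75 to -0.44) had an adjusted p of 0.0311 from edgeR. A two-sided exact permutation test of log2 CPM gave p = 0.0286, the smallest that 4 against 3 mice allow. Without replicate 3 the value was -1.31 (adjusted p = 0.0331). The call was lost when any of 4 single libraries was left out: B4galt1 flox/flox replicate 2 (-1.19, adjusted p = 0.0520), 3 (-1.06, adjusted p = 0.0666) or 4 (-0.89, adjusted p = 0.0730), or replicate 2 labelled B4galt1 hep-/- (-0.84, adjusted p = 0.0747, all from edgeR). The direction held in all 17 alternatives, over which the value ran from -1.31 to -0.84 and the adjusted p from 0.00344 to 0.0747.

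Saa2 (NCBI gene 20209), whose promoter is printed above beside that of Saa1, gave 56.9, 56.5, 55.1 and 96.8 CPM in B4galt1 flox/flox livers and 46.0, 22.9 and 49.0 CPM in the labelled livers. The groups did not overlap here either, and B4galt1 flox/flox replicate 4 stood far above its 3 near-equal neighbours. The log2 fold change was -0.75 (SE 0.29, 95% interval -1.40 to -0.11), short of the threshold (adjusted p = 0.0985 from edgeR). It passed with every gene of at least 1 count in any library tested (-0.77, adjusted p = 0.0446) and on both FPKM scales. Leaving out single libraries moved it between -0.95 and -0.48.

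Saa3 (NCBI gene 20210), the form that macrophages and adipocytes make besides hepatocytes, was at 21.1, 20.7, 35.5 and 32.4 CPM in B4galt1 flox/flox livers and at 30.0, 18.5 and 21.6 CPM in the labelled livers. The groups overlapped, and the log2 fold change of -0.23 (SE 0.25, 95% interval -0.78 to 0.32, adjusted p = 0.553) did not exceed the spread between mice. Saa4 (NCBI gene 20211), the constitutive form, was at 78.8, 104, 157 and 114 CPM against 121, 83.2 and 149.7 CPM. Its values interleaved, with a log2 fold change of 0.05 (SE 0.26, 95% interval -0.52 to 0.63, adjusted p = 0.908) whose sign turned without replicate 3 (-0.16). The Saa3 value also changed sign, to 0.05, when limma's voom weighted the libraries by quality.

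Markers of macrophages differed between the groups beside Saa3. Summed over the list they reached 975 to 1945 CPM in B4galt1 flox/flox livers but 522 to 627 CPM in the labelled ones. The means of these sums were 1349 and 591 CPM, of which Gpnmb held 709 and 215 CPM. Of 12 markers, 6 were called lower (7.83% of all tested genes) and 0 higher, with a median log2 fold change of -0.80. Without labelled replicate 3 the count was 3 lower (Adgre1, Cd68 and Gpnmb) and the median -0.76, and without B4galt1 flox/flox replicate 2 or replicate 3 the count was also 3. The called markers included Adgre1, which encodes the macrophage surface protein F4/80 (-1.88, adjusted p = 0.0159 from edgeR), and Gpnmb, a marker of lipid-laden macrophages (-1.72, adjusted p = 0.00691). Vsig4, a complement receptor of resident liver macrophages (-1.24, adjusted p = 0.0316), lost its call without labelled replicate 3 (-1.33, adjusted p = 0.0592) and in 4 other single omissions, labelled replicate 2 and B4galt1 flox/flox replicates 2 to 4 (adjusted p up to 0.0869). The scavenger receptor Marco (-1.24, adjusted p = 0.0379) lost its call without labelled replicate 3 (-1.13, adjusted p = 0.0990), without labelled replicate 2 (-1.03, adjusted p = 0.110), without B4galt1 flox/flox replicates 2 or 3 (-1.34 and -0.91), and with voom (-0.89, adjusted p = 0.0701). Trem2, a lipid-sensing receptor of macrophages (-0.83, adjusted p = 0.0254), lost its call without labelled replicate 3 (-0.76, adjusted p = 0.0643). That call was also lost without labelled replicate 1 and without B4galt1 flox/flox replicates 2 or 3. The adipocyte markers Adipoq and Plin1 had under 3 counts in every library, and the list summed to at most 0.198 CPM. The part of macrophages in the Saa3 level was not tested.

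Per transcript length the balance within the family differed. FPKM, which scales each count by transcript length and library total, allows levels of different genes to be compared, as far as the lengths are right. The lengths behind the deposited FPKM were 828, 825, 531 and 2100 bases for Saa1 to Saa4, against 609, 652, 2200 and 2094 bases for the longest coding transcripts of GENCODE, so both are used here. Of the summed FPKM of the 4 genes, Saa1 took 49.4% to 53.6% in B4galt1 flox/flox livers and 34.9% to 40.0% in the labelled livers, and Saa4 took 10.8% to 18.0% and 21.1% to 25.2%. Neither share overlapped between groups. With GENCODE lengths Saa1 took 58.9% to 62.7% and 47.2% to 49.8%, and Saa4 9.36% to 16.4% and 20.5% to 25.2%, again without overlap. The shares of Saa2 (16.1% to 23.9% and 17.7% to 20.8%) and Saa3 (12.2% to 16.1% and 14.2% to 22.2%) did overlap, and with GENCODE lengths Saa3 was only 2.53% to 3.53% and 3.15% to 5.33%. The FPKM ratio of Saa1 to Saa4 was 3.80, 3.10, 2.78 and 4.94 in B4galt1 flox/flox livers and 1.78, 1.38 and 1.60 in the labelled livers. The ratio of Saa1 to Saa2 differed less, at 2.07 to 3.10 against 1.83 to 1.97. A change of length rescales such a ratio equally in all livers. These shares and ratios were picked after their values had been seen and carry no test. The family as a whole summed to 275, 309, 419 and 466 CPM against 281, 170.0 and 315 CPM. These sums overlapped, and the log2 ratio of the means was -0.52, from -0.70 to -0.30 with single libraries left out. The deposited FPKM, whose totals include the mitochondrial transcripts, summed to 312 to 470 and 170.1 to 251, without overlap and with a log2 ratio of -0.81.

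**Figure D3:**
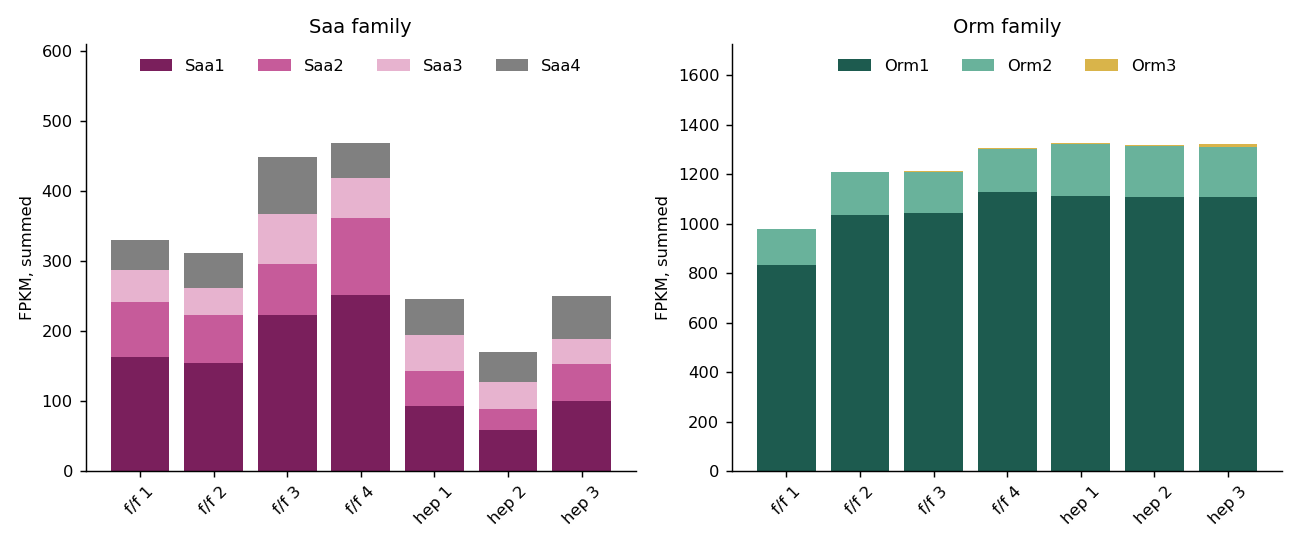
Deposited FPKM of the Saa genes (left) and the Orm genes (right), stacked within each of the 7 libraries (f/f, B4galt1 flox/flox; hep, labelled B4galt1 hep-/-). Saa1 makes up 34.9% to 40.0% of the Saa bar in the labelled livers and 49.4% to 53.6% in the others, whereas Orm1 is 83.7% to 86.3% of every Orm bar.

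Orosomucoids, or α1-acid glycoproteins, are plasma glycoproteins that carry basic drugs and lipids and dampen immune cell responses. Orm1 is the dominant mouse gene. Orm1 (NCBI gene 18405, chromosome 4) was at 567, 803, 752 and 939 CPM in B4galt1 flox/flox livers and at 958, 796 and 983 CPM in the labelled livers. The groups overlapped, with B4galt1 flox/flox replicate 1 the lowest of all. Its log2 fold change was 0.25 (SE 0.22, 95% interval -0.24 to 0.75, adjusted p = 0.461), and from 0.14 (without B4galt1 flox/flox replicate 1) to 0.37 with single libraries left out. Orm2 (NCBI gene 18406) was at 134, 180.1, 165 and 198 CPM against 247, 200.3 and 242 CPM, each labelled liver above each B4galt1 flox/flox liver, though replicate 2 only just. The difference of 0.44 (SE 0.20, 95% interval 0.01 to 0.88) had an unadjusted p of 0.0467 and an adjusted p of 0.146 from edgeR, and was from 0.32 to 0.53 in every alternative without passing.

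Orm3 (NCBI gene 18407), the member with the fewest counts, was at 6.12, 4.69, 8.15 and 9.58 CPM in B4galt1 flox/flox livers and at 10.8, 13.8 and 35.9 CPM in the labelled livers. Every labelled liver was above every B4galt1 flox/flox liver, but replicate 1 only slightly, and replicate 3 was far above both of the others. The labelled mean was 2.83 times the other, a log2 fold change of 1.50 (SE 0.39, 95% interval 0.66 to 2.34, adjusted p = 0.0257 from edgeR, exact permutation p = 0.0286). Without replicate 3, the library whose B4galt1 goes against the label, it was 0.78 (adjusted p = 0.109), and without B4galt1 flox/flox replicate 2 it was 1.34 (adjusted p = 0.0757). The call was lost in both cases. Behind these values stood 187 to 1090 counts per library.

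The 3 genes lie near each other and are close copies. Of the 100-base windows of the GENCODE transcripts, 6.95% of those of Orm1 occur in Orm2 and the other way round, and 0% of those of Orm3 or of the Saa genes occur in another gene. The sum over the family does not depend on how reads were split between copies. It was 707, 988, 925 and 1147 CPM in B4galt1 flox/flox livers and 1216, 1010 and 1261 CPM in the labelled livers, which overlapped, with a log2 ratio of means of 0.30, and of 0.19 (without B4galt1 flox/flox replicate 1) to 0.41 with single libraries left out. In deposited FPKM the sums were 980 to 1307 and 1318 to 1328, without overlap, and the log2 ratio was 0.17. Orm1 made up 84.9% to 86.3% of the summed FPKM in B4galt1 flox/flox livers and 83.7% to 83.9% in the labelled livers, Orm2 13.4% to 14.8% and 15.3% to 16.0%, and Orm3 0.157% to 0.291% and 0.295% to 0.955%. The deposited FPKM takes Orm2 as 1053 and Orm3 as 2491 bases, and GENCODE has 775 and 773. With the latter, Orm1 took 80.2% to 81.9% and 78.0% to 78.8%, Orm2 17.3% to 18.9% and 19.2% to 20.3%, and Orm3 0.476% to 0.884% and 0.889% to 2.85%, none overlapping between groups. The FPKM ratio of Orm1 to Orm2 was accordingly 5.74 to 6.42 and 5.25 to 5.49, small in size but without overlap, again seen first and not tested.

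Haptoglobin binds free haemoglobin and hemopexin binds free haem, and both complexes are cleared by receptors on macrophages and hepatocytes. Hp (NCBI gene 15439, chromosome 8) was at 4879, 5545, 4505 and 6365 CPM in B4galt1 flox/flox livers and at 8000, 6759 and 7413 CPM in the labelled livers. Every labelled liver was higher, yet the difference of 0.47 (SE 0.24, 95% interval -0.04 to 0.99) had an adjusted p of 0.185 from edgeR. In the alternatives it stayed between 0.36 and 0.57. Hpx (NCBI gene 15458, chromosome 7) was at 6142, 8238, 6445 and 8718 CPM against 7156, 6271 and 7829 CPM. Its groups overlapped, with a log2 fold change of -0.06 (SE 0.25, 95% interval -0.60 to 0.48, adjusted p = 0.888). The FPKM ratio of Hp to Hpx was 0.874, 0.741, 0.769 and 0.803 in B4galt1 flox/flox livers and 1.23, 1.19 and 1.04 in the labelled livers. Hpx was thus the more abundant of the pair in each B4galt1 flox/flox liver and Hp in each labelled liver, including replicate 3. This ratio, too, was noticed in the values and has no test.

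Lipocalin 2 (Lcn2, NCBI gene 16819, chromosome 2) takes iron-carrying siderophores away from bacteria and is made by stressed hepatocytes and stored in neutrophil granules. It was at 356, 472, 433 and 529 CPM in B4galt1 flox/flox livers and at 511, 522 and 764 CPM in the labelled livers. B4galt1 flox/flox replicate 4 lay between labelled livers, and replicate 3 was the highest. The log2 fold change was 0.42 (SE 0.23, 95% interval -0.08 to 0.92, adjusted p = 0.220) and 0.20 without replicate 3 (adjusted p = 0.566). Neutrophil markers summed to 27.6 to 40.2 CPM in B4galt1 flox/flox livers and 29.7 to 51.0 CPM in the labelled livers. Of the 12 markers 10 were tested, and 0 were called lower or higher by edgeR, where 7.83% and 8.0% of all tested genes were. Without labelled replicate 3, 1 of 11 was called higher. That marker was Csf3r, the granulocyte colony-stimulating factor receptor and the most abundant of the list (0.62, adjusted p = 0.104, and 0.85, adjusted p = 0.0318, without that library). Ly6g, the defining surface marker, had under 3 counts in every library. The part of neutrophils in the Lcn2 level was not tested.

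**Figure D4:**
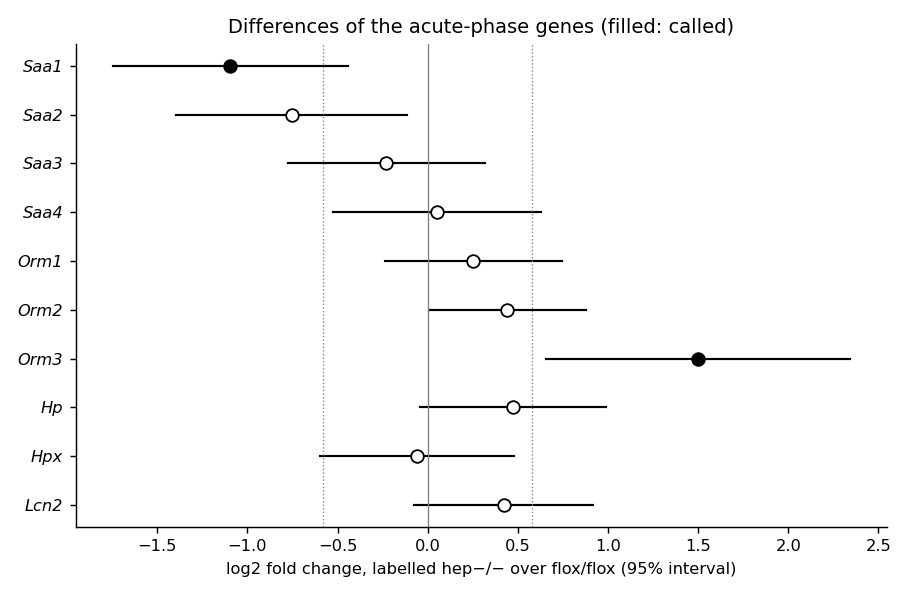
Log2 fold change of each acute-phase gene, livers labelled B4galt1 hep-/- over B4galt1 flox/flox, with its 95% interval from edgeR (filled circles pass the threshold, dotted lines mark ±0.58). The intervals of Saa1 (-1.75 to -0.44) and Orm3 (0.66 to 2.34) lie on opposite sides of 0, and those of Saa3, Saa4, Orm1, Hp, Hpx and Lcn2 include it.

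By mean deposited FPKM over all 7 livers, Hpx ranked 14 and Hp 15 among the 23347 genes, Orm1 52, Lcn2 104, Orm2 354, Saa1 419, Saa2 856 and Saa4 1001. Saa3 ranked 1102 and Orm3 6059. The ranks depend on the lengths used, most for Saa3 and Orm3, and also for Saa1, Saa2 and Orm2. The order within B4galt1 flox/flox livers was Hpx (4700 to 5591 FPKM), Hp (3615 to 4426), Orm1 (832 to 1128) and Lcn2 (477 to 580), none of which overlapped its neighbour. Saa1 (155 to 252) and Orm2 (145 to 176) did overlap, as did Saa3 (39.2 to 72.1) and Saa4 (42.9 to 80.6). With GENCODE lengths Saa3 (9.45 to 17.4) lay below Saa4 (43.0 to 80.8) and overlapped Orm3 (6.10 to 11.6) instead. In the labelled livers Hp (4845 to 5443) came before Hpx (4371 to 4650), and Orm2 (202 to 212) lay clear of Saa1 (59.3 to 100.4), the reverse of their mean order in B4galt1 flox/flox livers. Together the 10 genes took 1.43% to 1.75% of the counts outside mitochondrially encoded genes in B4galt1 flox/flox livers and 1.81% to 2.05% in the labelled livers, without overlap. Of all counts, mitochondrially encoded genes included, they took 1.37% to 1.61% and 1.55% to 1.60%, which overlapped. Most of these counts were those of Hp and Hpx.

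Across the 7 livers, Saa1 and Saa2 were most alike (Pearson r of log2 CPM 0.95). Among the Orm genes, Hp and Lcn2, r ran from 0.59 (Orm1 with Orm3) to 0.94 (Orm1 with Orm2). Orm2 with Hp was at 0.91, Orm3 with Lcn2 at 0.87 and Orm3 with Hp at 0.65. Saa1 had an r of -0.49 with Hp and -0.02 with Orm1. Hpx gave 0.68 with Orm1 and 0.61 with Saa2, and Saa4 gave 0.58 with Orm1 and 0.63 with Saa3. These values are near the lower ones among the Orm genes, Hp and Lcn2. These are descriptions over 7 points that share libraries, scaling and the split by genotype. Outside the list, the profiles nearest to Saa1 were those of Ndrg2, Tmem241 and Stradb (each r = 0.98), and among those nearest to Saa2 were Phb2 and Ppib (both 0.98). Rps14 (0.98), Marcks (0.97) and Calcrl (0.96) lay closest to Saa3, and Vcpip1 (0.99), Ranbp9 (0.98) and Hspa4l (0.98) to Saa4. For the orosomucoids they were Cept1, Ndufv2 and Suz12 with Orm1 (each 0.98), Ssb (0.99), Uqcrb and Ifrd1 (both 0.98) with Orm2, and Ufsp1 (0.98), Dmxl2 and Gadd45g (both 0.97) with Orm3. Hp was nearest to Cisd3, Fetub and Taf10 (each 0.99), Hpx to Apcs (0.99), Zfp91 (0.98) and C9 (0.97), and Lcn2 to Nfil3, Rasgef1b and Ints13 (each 0.98).

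Of 24 further positive acute-phase genes, 23 were tested, 2 were lower and 2 higher, with a median log2 fold change of -0.13. Over all tested genes 7.83% were lower and 8.0% higher, and nothing is read from the count about the list. Without labelled replicate 3, 5 of 24 were lower and 2 higher, with a median of -0.36 (-0.36 to -0.02 with single libraries left out). Steap4, a metalloreductase, missed the threshold with that library (-1.14, adjusted p = 0.0514 from edgeR) and passed without it (-1.62, adjusted p = 0.0187). It also passed without B4galt1 flox/flox replicate 1. The lower ones were Crp and C3. Crp, the pentraxin C-reactive protein, was at 172, 207, 221 and 199.9 CPM in B4galt1 flox/flox livers and at 92.6, 56.7 and 130.5 CPM in the labelled livers, without overlap (log2 fold change -1.10, adjusted p = 0.0201 from edgeR). The Crp call was lost without B4galt1 flox/flox replicate 2 (-1.09, adjusted p = 0.0541). C3, the central complement component, was at 5618 to 6999 and 2992 to 4599 CPM (-0.80, adjusted p = 0.0478), and it was called without replicate 3 labelled B4galt1 hep-/- (-0.99) but lost when any of the other 6 libraries was omitted (-0.86 to -0.67), with the filter of at least 1 count in any library (adjusted p = 0.0954) and with the replicate number as a block (adjusted p = 0.152). The higher genes were the metallothioneins Mt1 and Mt2, metal-binding proteins induced by zinc, glucocorticoids and interleukin 6. Mt1 was at 112, 107, 103 and 214 CPM against 515, 614 and 939 CPM (2.36, adjusted p = 0.00257), and Mt2 differed by 2.43 on the log2 scale (adjusted p = 0.00250). Both were called in every alternative. The fibrinogen chains turned on replicate 3 labelled B4galt1 hep-/-. Fga was at 1854, 2901, 1679 and 1927 CPM against 617, 522 and 2463 CPM, where replicate 3 lay among the B4galt1 flox/flox livers and the other labelled livers far below them. Fga did not pass with it (-0.80, adjusted p = 0.266) and passed without it (-1.89, adjusted p = 0.00675), as did Fgg (-0.52 with it, -1.41 and adjusted p = 0.0159 without it), whereas Fgb did not pass either way (-0.02 and -0.63, adjusted p = 0.128 without it, all from edgeR). Lbp, which presents bacterial endotoxin to immune cells, gave -0.06 and -0.23.

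Of 15 negative acute-phase genes, whose expression in liver falls during inflammation, 1 was lower and 1 was higher, where 7.83% and 8.0% of all tested genes were, and nothing is read from the count. The median was -0.16, from -0.31 (without labelled replicate 3, when 0 were higher) to 0.011 (without labelled replicate 2) with single libraries left out. Cyp2e1, a microsomal cytochrome P450 and not a plasma protein, was at 8848 to 9868 CPM in B4galt1 flox/flox livers and at 2417 to 5215 CPM in the labelled livers (-1.32, adjusted p = 0.0145 from edgeR). Fetub, a fetuin, was higher (0.79, adjusted p = 0.0351), but not without replicate 3 (0.72, adjusted p = 0.0715), nor without 4 other libraries taken singly (B4galt1 flox/flox replicates 1 to 3 and labelled replicate 1, 0.69 to 0.82) or with the replicate block (adjusted p = 0.0837). Alb, the albumin gene whose promoter drives the Cre here, differed by 0.29 on the log2 scale (adjusted p = 0.561), 0.10 without labelled replicate 3 and 0.45 without labelled replicate 2, and the 12 hepatocyte markers summed to 95207 to 137139 CPM and 103502 to 164272 CPM. The means of these sums were 118004 and 133552 CPM, of which Alb held 75054.5 and 91684 CPM. Of these 12 markers 1 was called lower, Cyp2e1, and 0 higher, where 7.83% and 8.0% of all tested genes were. Without labelled replicate 3, Ass1 and Cps1, enzymes of the urea cycle, and Tdo2, which degrades tryptophan, were also called lower (-0.93, -1.43 and -2.09, adjusted p = 0.0236, 0.0106 and 0.00752 from edgeR, against -0.52, -0.85 and -1.31, adjusted p = 0.212, 0.110 and 0.0566, with it).

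**Figure D5:**
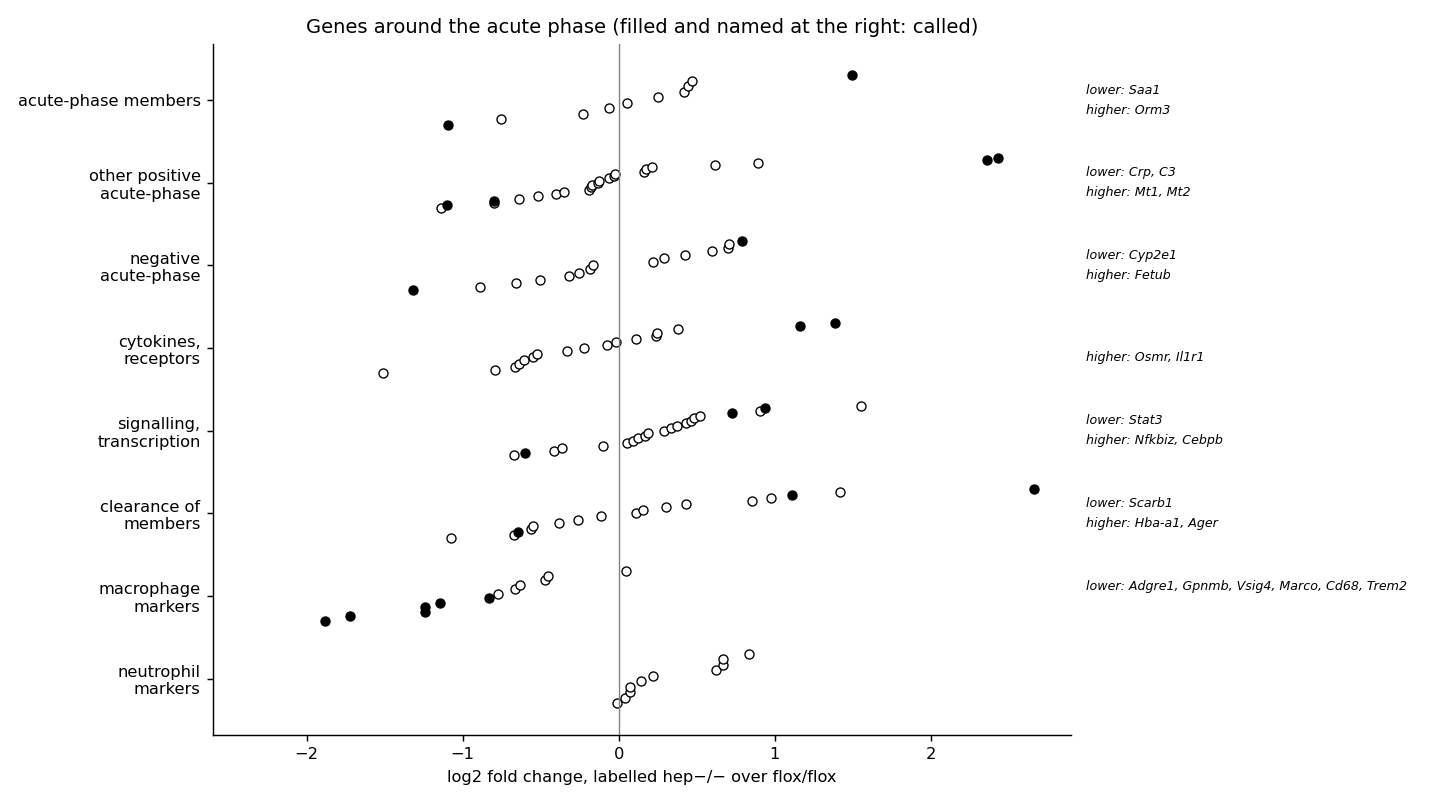
Log2 fold change, livers labelled B4galt1 hep-/- over B4galt1 flox/flox, of the tested genes in 8 lists (circles, spread vertically for legibility), with those past the threshold filled and named at the right. Macrophage markers lie almost wholly to the left (6 of 12 called lower), whereas the cytokine and receptor list holds calls only to the right (2) and the remaining acute-phase lists hold calls on both sides.

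The inducing cytokines themselves were scarce. Il6 had under 3 counts in every library, and Il1b and Tnf lay between 1.12 and 5.76 CPM with log2 fold changes of -0.61 (adjusted p = 0.346) and 0.38 (adjusted p = 0.546). With single libraries left out those values ran from -1.08 to -0.30 and from 0.057 to 0.61. Of 20 cytokine and receptor genes 17 were tested, 0 were lower and 2 were higher, where 7.83% and 8.0% of all tested genes were. The median was -0.22, from -0.31 (without labelled replicate 2) to -0.06 (without B4galt1 flox/flox replicate 3 or labelled replicate 1). Without labelled replicate 3, 2 of 18 were lower and 2 higher. The lower were Il6ra and the TNF receptor gene Tnfrsf1a (-0.55, adjusted p = 0.0561 from edgeR with that library, and -0.67, adjusted p = 0.0447, without it). Il1r1, the signalling receptor of interleukin 1, was at 34.7, 35.8, 57.8 and 32.1 CPM in B4galt1 flox/flox livers and at 77.2, 104 and 134 CPM in the labelled livers (1.39, adjusted p = 0.00731 from edgeR), without overlap and called in every alternative. Osmr, the oncostatin M receptor, was at 5.96 to 14.2 and 16.9 to 35.5 CPM (1.16, adjusted p = 0.0313). That call was lost without labelled replicate 2 (0.75, adjusted p = 0.130) and without B4galt1 flox/flox replicates 2 (1.15) or 4 (0.96), as well as on log2(FPKM + 1) (0.74, adjusted p = 0.0901) and log2(FPKM + 0.1) (0.99, adjusted p = 0.0911) and with the replicate block (0.89, adjusted p = 0.0921). Il6ra, the ligand-binding interleukin 6 receptor chain, was at 29.7, 27.0, 49.4 and 17.2 CPM against 3.57, 9.98 and 18.9 CPM. Its log2 fold change of -1.51 just missed the threshold (adjusted p = 0.0525), and it passed in 10 of 17 alternatives, among them without labelled replicate 3 (-2.19, adjusted p = 0.0202).

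Among 21 signalling genes and transcription factors, 1 was lower and 2 were higher, where 7.83% and 8.0% of all tested genes were. The median was 0.29, from 0.15 (without labelled replicate 3) to 0.36 with single libraries left out, and 0 were called without B4galt1 flox/flox replicate 2 or without labelled replicate 1. Stat3, which carries the gp130 signal, was at 84.0, 111, 93.8 and 88.8 CPM in B4galt1 flox/flox livers and at 57.5, 57.2 and 72.0 CPM in the labelled livers (-0.60, adjusted p = 0.0492 from edgeR), a call lost in 10 of 17 alternatives, among them the omission of any single library other than labelled replicate 3 (-0.65 to -0.52). Cebpb, which binds motifs of the kind in capitals above, was at 136, 136, 178 and 198 CPM against 375, 246 and 309 CPM, without overlap (0.94, adjusted p = 0.0184). It missed the threshold without B4galt1 flox/flox replicate 2 (0.86, adjusted p = 0.0676) or labelled replicate 1 (0.77, adjusted p = 0.0594). Nfkbiz, an inducible NF-kB cofactor, was higher by 0.73 (adjusted p = 0.0410), but not without B4galt1 flox/flox replicates 2 or 3 (both 0.62) or any single labelled replicate (0.68 to 0.77), nor on the FPKM scales (adjusted p = 0.0760 and 0.0748) or with the replicate block (adjusted p = 0.0569). Cebpd (0.46, adjusted p = 0.182) and Socs3, the feedback inhibitor of gp130 signalling (0.48, adjusted p = 0.380), did not pass.

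Of 18 genes that bind, clear or handle the members' products, 17 were tested, 1 was lower and 2 were higher, where 7.83% and 8.0% of all tested genes were. The median was 0.11, from -0.18 (without labelled replicate 1, and -0.14 without B4galt1 flox/flox replicate 2) to 0.23 with single libraries left out. Without labelled replicate 3, 2 were lower and 1 higher, the second lower one being Asgr2, a chain of the asialoglycoprotein receptor (-0.55, adjusted p = 0.120 from edgeR with that library, and -0.82, adjusted p = 0.0345, without it). Scarb1, a receptor for high-density lipoprotein that also takes up serum amyloid A, was at 144 to 174 CPM and 88.5 to 122 CPM (-0.65, adjusted p = 0.0436 from edgeR), and lost its call when any library but labelled replicate 3 was omitted (-0.69 to -0.58), with the filter of at least 1 count in any library (adjusted p = 0.0528) and with the replicate block (adjusted p = 0.134). Ager, a receptor that binds serum amyloid A among other ligands, was low throughout, at 0.305 to 1.15 CPM against 2.20 to 8.20 CPM (2.66, adjusted p = 0.0103). Hba-a1, an α-globin chain of the haemoglobin that haptoglobin binds, was at 26.6, 17.7, 33.2 and 36.1 CPM against 84.9, 28.5 and 71.1 CPM. Its groups overlapped although it passed (1.11, adjusted p = 0.0452), and without labelled replicate 3 it did not (0.99, adjusted p = 0.113), nor without any other single library except labelled replicate 2 (0.79 to 1.25), nor on the FPKM scales (adjusted p = 0.0674 and 0.0671). Hba-a2 (0.98, adjusted p = 0.0549) and the β-globins Hbb-bs (0.31, adjusted p = 0.70) and Hbb-bt (0.11, adjusted p = 0.907) did not pass. The part of blood left in the livers was not tested. Among 6 cholangiocyte markers 0 were called by edgeR (15.8% of all tested genes were). Their median of 0.43 turned to -0.68 without labelled replicate 2, where the list summed to 82.5 CPM against 15.1 to 45.3 CPM in the other livers. Epcam, with the highest level among them, differed by -0.06 (adjusted p = 0.946), and Krt7 and Krt19 by 0.89 and 0.62 (adjusted p = 0.305 and 0.441). Of 9 endothelial and stellate markers 1 was called lower and 0 higher, where 7.83% and 8.0% of all tested genes were. The called gene was Kdr (-1.33, adjusted p = 0.0441). That call was lost in 5 of 7 single omissions, each labelled replicate among them, from -1.44 to -0.87. It was also lost on both FPKM scales, with voom and with the replicate block. Dcn, the most abundant, differed by -0.21 (adjusted p = 0.661), and Stab2 and Des by 0.45 and 0.53 (adjusted p = 0.238 and 0.170). The median of the list was -0.16, from -0.35 to 0.18 (without B4galt1 flox/flox replicate 3) with single libraries left out.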

How the data were processed

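Liver RNA of 7 mice was analysed, 4 B4galt1 flox/flox and 3 labelled B4galt1 hep-/-, 1 library per mouse, grouped by their labels. The authors extracted total RNA with TRIzol, prepared libraries with a VAHTS Universal V6 kit, and OE Biotech sequenced them. The submitters' processing notes name fastp, HISAT2, HTSeq, DESeq2, R 3.2.0 and GRCm39. The study's methods give DESeq2 for differential expression and R for enrichment analysis, and no role for the others. Read length, annotation and strand setting are not given in the sources used here. The authors deposited counts, unnormalized whole numbers per gene and library with NCBI gene identifiers, and the authors also deposited FPKM values, the same counts divided by a fixed gene length and the library total, mitochondrial transcripts included. No column of sample values was left unused.

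Low genes were removed with filterByExpr (minimum count 10, minimum total 15), and 15179 of 23347 were tested. The main model was the quasi-likelihood fit of edgeR 4.0.16 (R 4.3.3) to TMM-scaled counts of all 7 libraries, with group alone, the thresholds being those of the study, which used DESeq2. Standard errors came from the F statistic. Exact permutation tests were two-sided, on the difference of mean log2 CPM, with 0.0286 as the smallest p. Totals ranged from 30608271 to 39668509 counts, and the counts behind a member from 187 (Orm3) to 328260 (Hpx). At the fewest counts per library, counting error alone was 7.31% for Orm3 and at most 4.04% for the other members. Each of 21 library pairs differed by more than sampling noise (chi-square per gene at least 60.9).

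The members and gene lists were chosen with earlier results of these data known, so their counts are descriptions. The text names all members, B4galt1, called genes of the pathway lists (up to 6 each), a set of cytokine and transcription factor genes whatever their result, the most abundant and up to 4 called genes of each marker list, and the 3 nearest profiles per member, apart from genes that are not reported here. Cfd, the most abundant adipocyte marker, and Il6 were too low to test. Fga, Fgb, Fgg, Lbp, Hba-a2, Hbb-bs, Hbb-bt, Cd68, Trem2, Steap4, Ass1, Cps1, Tdo2, Tnfrsf1a, Asgr2, Krt7, Krt19, Stab2 and Des, the GENCODE lengths, and all shares and ratios, were chosen after their values were seen.

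The analysis was repeated with DESeq2 1.42.0, with RLE or upper-quartile factors, with filters of 1 count or more in any library or 10 in every library, without the 13 mitochondrially encoded genes, with voom and sample weights, with a block on the replicate number, and omitting each library in turn. The FPKM values were tested with limma 3.58.1 after adding 1 or 0.1 and taking log2, where a gene reached an FPKM of 1 in 3 libraries. On simulated counts, edgeR recovered 196 of 200 genes changed by 2 on the log2 scale among 14965 tested, with 10 false calls among 206. These changes were placed in well-counted genes, and all genes had the same dispersion. The recovery therefore does not show how smaller changes, or genes that vary more between mice, would fare. Promoter windows and motifs were read from RefSeq tables on GRCm38.p6, a build other than that of the counts, and no protein sequence was used here. Transcript windows came from GENCODE for GRCm38.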

Additional observations from a re-analysis of the deposited data

Results flagged for a closer look

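Within the 4 B4galt1 flox/flox livers, 45 quantities, gene levels with a few sums and shares, were screened for 1 liver far from the other 3. Cfd and Il6 were skipped as too low. Of the rest, 5 stood out, where chance gives about 1 in 20 for independent quantities, which these are not. Saa2 was at 96.8 CPM in replicate 4. In that same library Mt2 was at 94.2 CPM and Mt1 at 214 CPM, each the highest of its group by a wide gap but below all 3 livers labelled B4galt1 hep-/-. Il1r1 was at 57.8 CPM and Adgre1 at 71.3 CPM in replicate 3, the library with the largest macrophage marker sum (1945 CPM). Groups of 3 were not screened, so the level of Orm3 in replicate 3 labelled B4galt1 hep-/- was not part of this.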

How the results depend on the processing

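Over 17 alternatives, Orm1, Orm2, Hp and Lcn2 kept their direction and missed the threshold in each, and Saa1, Saa2 and Orm3 kept their direction. The number of members called lower was 2 with at least 1 count in any library (Saa2 -0.77) and on log2(FPKM + 1) (Saa2 -0.90) and log2(FPKM + 0.1) (Saa2 -0.91), and from 0 to 1 with single libraries left out, as was the number called higher (0 to 1). With single libraries left out, Saa1 ran from -1.31 to -0.84, Orm3 from 0.78 to 1.78, and B4galt1 from -0.96 to -0.30, and B4galt1 passed on both FPKM scales (-0.67 and -0.73). Values near 0 changed sign: Saa3 to 0.053 with voom, Saa4 to -0.07 on both FPKM scales (-0.0680 and -0.0688) and within -0.16 to 0.25 with single libraries left out, Hpx within -0.15 to 0.03, Epcam to 0.0021 with upper-quartile factors and within -1.06 to 0.30, and Dcn to 0.12 with voom and within -0.47 to 0.05. The signs of Epcam and Dcn turned without B4galt1 flox/flox replicate 2 (Epcam 0.05), without replicate 3 (Epcam 0.09, Dcn 0.050), and without labelled replicates 1 (Epcam 0.19), 2 (Dcn 0.0079) and 3 (Epcam 0.30). Saa4 turned without B4galt1 flox/flox replicate 1 (-0.09), and Hpx without replicate 4 (0.029) and without labelled replicate 2 (0.02). The cause was not tested.

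Genes called lower over the whole table numbered 1189, and 1946 on log2(FPKM + 0.1) and 474 to 1175 with single libraries left out (474 without B4galt1 flox/flox replicate 2, 707 without replicate 3, 593 without labelled replicate 2). Those called higher numbered 1215, and 561 and 601 on the FPKM scales and 411 to 1291 with single libraries left out (411, 698 and 748 without B4galt1 flox/flox replicates 2, 3 and 4, 606 without labelled replicate 2). On log2(FPKM + 1) the median of all genes moved by -0.12 and 24.5% of calls were higher, against 50.5%. FPKM divides by a total that includes mitochondrial transcripts, and without those 13 genes Saa1 was -1.10 and Orm3 1.49. With GENCODE transcript lengths, an alternative added after seeing the data, the mean share of Saa2 in its family was 0.113 percentage points higher in the labelled livers instead of lower (-1.67). For 28 other named genes, 381 of 476 comparisons kept direction and side of the threshold, 76 lost the call, 11 gained it and 8 changed sign.

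The replicate numbers do not pair the mice in any source, and the correlations of same-numbered deviations were -0.42, -0.10 and 0.09. With the number as a replicate block, Saa1 lost its call (-0.94, adjusted p = 0.0643 from edgeR), Hpx turned to 0.037, 0 members were called lower, and 615 genes were called lower and 652 higher. Depth limits Orm3 most, with 187 counts in its lowest library. With 3 livers labelled B4galt1 hep-/-, 1 of which goes against its label, an interval such as that of Hp (-0.04 to 0.99) spans 0 and values past the threshold.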
